A study of Mus musculus with 4 samples.

Results

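The Hoxd1 side landscape of the HoxD complex was described here by the Meis peaks whose summits lay in a stretch of 1.187 Mb of mouse chromosome 2 (mm9). It begins 14 bp past the Hoxd12 start, which the distances in the study place at 74512986, and ends 1036 kb past the Mtx2 start at 74663860, beyond the gene desert that follows Mtx2. The stretch holds the 9 genes Hoxd12, Hoxd11, Hoxd10, Hoxd9, Hoxd8, Hoxd3, Hoxd4, Hoxd1 and Mtx2. The forelimb (FL) bud list placed 52 of its 21338 peaks there and the hindlimb (HL) bud list 50 of its 16987, that is, 102 of 38325 peaks. These carried 59 of 22906 FL summits and 62 of 17810 HL summits. Both lists are permissive and include weak peaks, all of which are counted here unless a cutoff is given. With p of at most 0.0005, 29 of the 52 FL and 24 of the 50 HL landscape peaks remained. The paper used that stricter cutoff for peaks of a single limb, and the permissive calling only to find peaks shared by both limbs. Limb buds came from wild-type C57BL/6 mouse embryos at E10.5 (36 somites), and about 500 limbs of each type were pooled. Chromatin was precipitated with a pair of antibodies used together, one against Meis1a, Meis2a and Meis2c and the other against all Meis1 isoforms, so that Meis1 and Meis2 binding cannot be told apart. Each limb type gave 1 ChIP library and 1 input library, and a difference between FL and HL therefore has no replicate check. The deposited lists give no read counts, and the depth of the libraries was not analysed here. The paper gives similar raw read numbers for the FL and HL ChIP libraries. It also gives a lower uniquely mapped share in HL, and fewer HL than FL peaks at its quality cutoffs.

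Hox genes encode homeodomain transcription factors that give cells their position along the body axis and along the limb, and Meis proteins are homeodomain cofactors that bind DNA alone or together with Pbx and Hox proteins. In the HoxD complex the genes lie in a row, with Hoxd13 at one end and Hoxd1 at the other. A gene desert flanks the complex on each side. The desert on the Hoxd1 side is known for enhancers that drive Hoxd genes in the early limb bud and the proximal limb, while the desert on the Hoxd13 side is known for enhancers active in the digits. Mtx2, which encodes a protein of the mitochondrial outer membrane, lies between Hoxd1 and the desert, and Hnrnpa3, which encodes an RNA-binding protein, is the next gene start past the desert.

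A summit lay within 1000 bp of a start of 4 of the 9 genes, namely Hoxd11 (at both of its starts), Hoxd9, Hoxd8 and Hoxd4. Their 5 promoters are printed because they are the sequences under or next to the gene-proximal peaks. Each runs 5′ to 3′ from 250 bases before to 50 bases after the start (RefSeq, GRCm38.p6, plus strand). Capitals mark a match to an octamer searched for, and lower case is the rest.
Hoxd11, the first start, chr2:74679308-74679607: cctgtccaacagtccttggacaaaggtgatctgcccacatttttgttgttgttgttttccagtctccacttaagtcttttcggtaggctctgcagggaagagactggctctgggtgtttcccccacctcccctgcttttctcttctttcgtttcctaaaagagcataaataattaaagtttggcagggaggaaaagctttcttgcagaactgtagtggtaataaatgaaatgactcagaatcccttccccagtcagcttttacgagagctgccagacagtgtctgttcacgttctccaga
Hoxd11, the second start, chr2:74682073-74682372: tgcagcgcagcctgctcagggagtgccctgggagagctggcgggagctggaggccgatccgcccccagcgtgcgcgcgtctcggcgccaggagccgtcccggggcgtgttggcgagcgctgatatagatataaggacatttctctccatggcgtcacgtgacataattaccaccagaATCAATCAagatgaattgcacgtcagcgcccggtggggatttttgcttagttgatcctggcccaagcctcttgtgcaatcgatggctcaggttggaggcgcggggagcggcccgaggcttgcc
Hoxd9, chr2:74697513-74697812: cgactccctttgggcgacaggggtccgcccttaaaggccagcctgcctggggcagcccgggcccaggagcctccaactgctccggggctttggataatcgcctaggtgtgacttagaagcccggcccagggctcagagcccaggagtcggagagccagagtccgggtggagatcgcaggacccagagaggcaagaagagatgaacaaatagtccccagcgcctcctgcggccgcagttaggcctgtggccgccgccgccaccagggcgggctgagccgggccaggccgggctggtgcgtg
Hoxd8, chr2:74704365-74704664: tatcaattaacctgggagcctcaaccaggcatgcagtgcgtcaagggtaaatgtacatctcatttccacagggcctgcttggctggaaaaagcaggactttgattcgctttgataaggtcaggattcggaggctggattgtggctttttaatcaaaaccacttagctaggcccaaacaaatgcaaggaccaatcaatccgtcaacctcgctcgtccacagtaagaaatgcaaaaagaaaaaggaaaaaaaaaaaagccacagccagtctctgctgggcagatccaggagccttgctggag
Hoxd4, chr2:74721728-74722027: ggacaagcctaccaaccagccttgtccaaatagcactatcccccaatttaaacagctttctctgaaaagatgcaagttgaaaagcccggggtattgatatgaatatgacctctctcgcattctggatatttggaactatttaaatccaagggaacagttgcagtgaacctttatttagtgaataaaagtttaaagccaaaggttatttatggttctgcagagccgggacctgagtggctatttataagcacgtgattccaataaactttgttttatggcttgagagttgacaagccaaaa
Searched on both strands were the Meis hexamer TGACAG and the Hox-Pbx octamers TGATTTAT and TGATTGAT. The octamers share their first letters TGATT, and no match overlapped another. Of these, 1 match was found in the 5 windows. TGATTGAT stood on the minus strand of the promoter at the second Hoxd11 start, at positions −73 to −66 from that start (negative positions are upstream), where the plus strand reads ATCAATCA. Over 32851 mouse promoters of the same length, TGATTGAT was present in 0.746%, TGATTTAT in 0.977% and TGACAG in 19.2%. GC content of the 5 windows ran from 39.7% (Hoxd4) to 68.3% (Hoxd9). A match in letters is a description and no measure of binding.

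Meis peaks were dense along the landscape in both limbs. FL had 43.8 peaks per Mb and HL 42.1. Across 2206 windows of the same length tiled along the chromosomes, the median was 7 FL peaks and 4 HL peaks. Of these windows, 19 (0.861%) held at least 52 FL peaks and 15 (0.680%) at least 50 HL peaks, with highest counts of 98 and 86. These windows are a background for the count and no test.

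**Figure D1:**
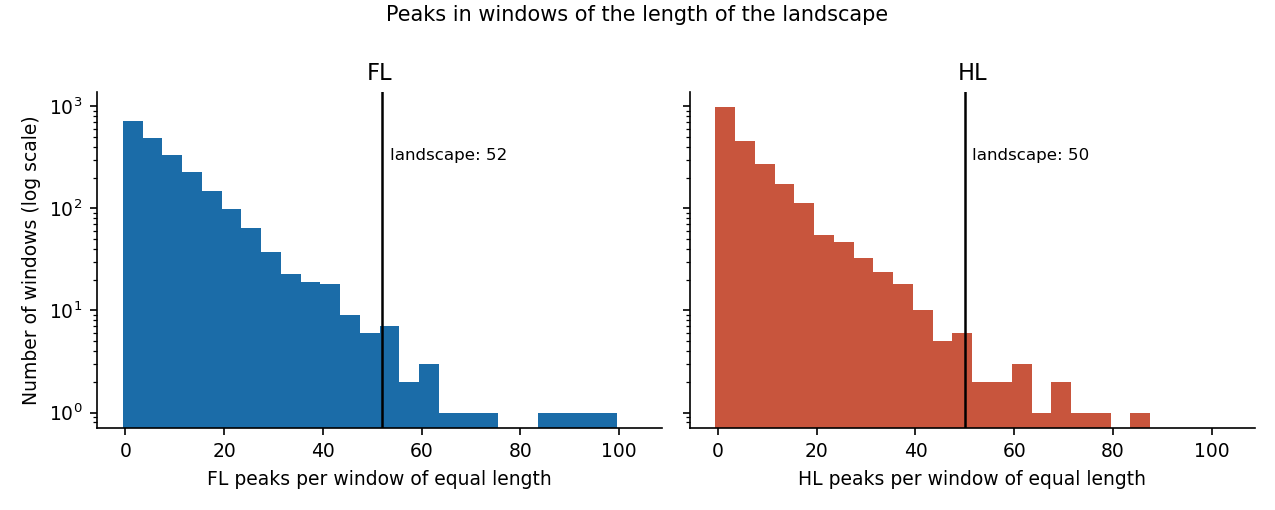
Number of windows of 1.187 Mb (log scale) by the number of Meis peaks they hold, for FL and HL. The vertical lines mark the 52 FL and 50 HL peaks of the landscape, against medians of 7 and 4 peaks per window.

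Strength was measured by the fold enrichment over input and the q value that the authors' peak caller gave each peak, and peaks with q of at most 0.05 were counted as called. In FL, 15 of the 52 landscape peaks were called, or 28.8% (95% Wilson interval 18.3 to 42.3), against 17.4% of all FL peaks. In HL, 10 of 50 were called, or 20.0% (11.2 to 33.0), against 10.1% of all HL peaks. By this cutoff the interval lay just above the background share in both limbs, whereas with p of at most 0.0005 the HL interval (34.8 to 61.5) held the background of 37.0%. Wilson intervals here cover counting error only. Of the 2206 windows, 6 (0.272%) held at least as many called peaks as the landscape in FL, and 6 did in HL. The median fold of landscape peaks was 3.10 in FL (interval of the median 2.72 to 3.41, range 1.91 to 10.02) and 2.88 in HL (2.61 to 3.15, range 1.84 to 8.52), while it was 2.78 over all peaks of either list. Landscape peaks were in the median slightly higher than all peaks, and the interval of the median reaches below 2.78 in both limbs. Peaks with several summits made up 6 of 52 in FL (11.5%, 5.40 to 23.0, against 6.14% of all FL peaks) and 9 of 50 in HL (18.0%, 9.77 to 30.8, against 4.15%). Median peak length was 200 bp in FL and 159 bp in HL, and the peaks covered 12.5 kb and 11.2 kb in all.

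The peaks were spread unevenly over the landscape. From the window start to the Hoxd1 start, 88.0 kb of the Hox complex held 16 FL peaks (182 per Mb) and 19 HL peaks (216 per Mb). Between the starts of Hoxd1 and Mtx2, 62.8 kb held no FL peak and 1 HL peak with a fold of 2.88 and q of 1. The 833 kb from the Mtx2 start to the Hnrnpa3 start, which comprise Mtx2 and the gene desert, held 34 FL peaks (40.8 per Mb) and 29 HL peaks (34.8 per Mb). The last 203 kb, past the Hnrnpa3 start, held 2 FL peaks and 1 HL peak. Per Mb, the complex thus had 4.46 times as many FL peaks and 6.20 times as many HL peaks as the desert interval. The highest fold in the complex was 5.84 in FL and 4.68 in HL, and in the longer desert interval it was 10.02 and 8.52. Median fold differed little, with 3.17 in the complex and 3.08 in the desert interval for FL, and 2.89 and 2.87 for HL. Called peaks numbered 5 of 16 (FL) and 4 of 19 (HL) in the complex, and 9 of 34 and 6 of 29 in the desert interval.

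**Figure D2:**
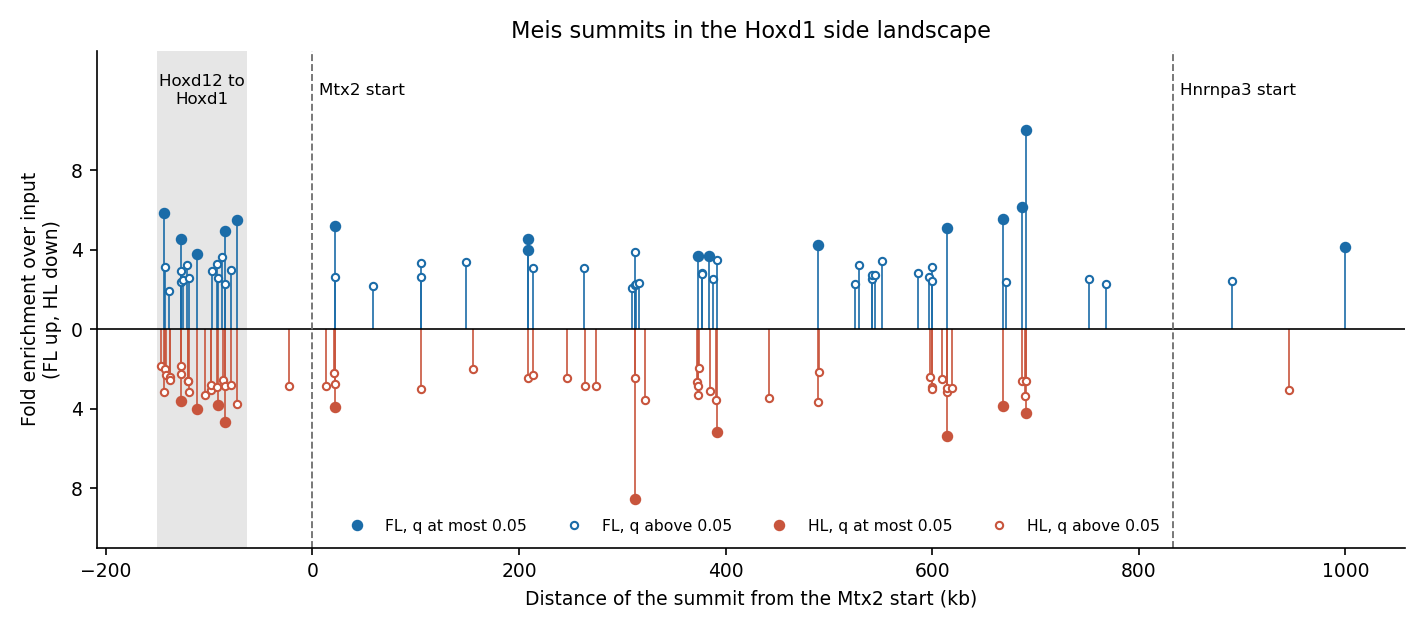
Fold enrichment over input of each Meis summit (FL upwards, HL downwards) by its distance from the Mtx2 start in kb; filled points have q of at most 0.05. Summits crowd between Hoxd12 and Hoxd1 (grey), are nearly absent from there to Mtx2, and reach their highest fold in the desert, in FL at 690 kb and in HL at 313 kb.

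Within the desert interval the peaks came in groups with empty stretches between them. In steps of 50 kb, the step that begins 299 kb past the Mtx2 start held 5 FL and 3 HL peaks, the next held 5 and 5, and the step from 649 kb held 4 and 3. The step from 499 kb held 5 FL peaks and no HL peak. Those 5 FL peaks had folds of 2.27 to 3.24, with q of at least 0.712. Neither limb had a peak in the step from 699 kb or in the step from 799 kb. The longest FL stretch without a peak inside the interval was 98.2 kb (from 391 to 490 kb). Longer ones ran past the Hnrnpa3 start, 122 kb in FL (from 768 to 890 kb) and 255 kb in HL (from 691 to 945 kb), against median gaps of 5.68 kb and 6.37 kb. Another long FL gap, of 94.2 kb, ran from upstream of Hoxd1 into Mtx2.

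Among the 9 genes, 6 in FL and 7 in HL had a peak between their own start and the next gene start. No peak of either limb lay in the intervals of Hoxd12 (4.54 kb) and Hoxd10 (5.87 kb). For Hoxd12, a group 12 gene of the distal limb, the nearest summit within the landscape was 7.26 kb downstream in FL and 4.58 kb downstream in HL. Just outside the landscape, upstream of Hoxd12, a peak of the Hoxd13 side had its highest summit at −5.01 kb in FL (fold 11.6, q = 9.03e-69) and at −4.88 kb in HL (fold 5.45, q = 4.30e-12). These distances were measured from the GRCm38 Hoxd12 start, placed by its distance from Mtx2. The start at 74512986 given above differs from it by −84 bp. For Hoxd10, the nearest summit was upstream, at −4.41 kb in FL (fold 1.91, q of 1) and −3.54 kb in HL (fold 2.58, q of 1).

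**Figure D3:**
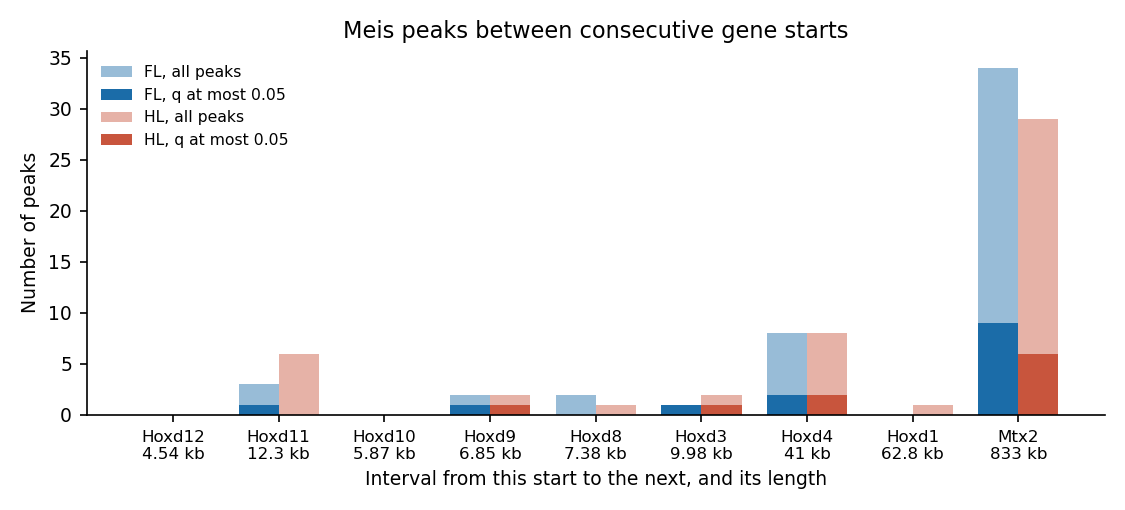
Number of Meis peaks between each gene start and the next, for FL and HL, with the length of the interval under each gene; dark parts of the bars are peaks with q of at most 0.05. The intervals of Hoxd12 and Hoxd10 have none. The interval from the Hoxd4 start to the Hoxd1 start has 8 in each limb, most of them within introns of Hoxd3. The long Mtx2 interval holds 34 FL and 29 HL peaks.

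Hoxd11, which patterns the forearm and the shank, had 3 FL and 6 HL peaks in its 12.3 kb interval. At its second annotated start a peak was present in both limbs, chr2:74520131-74520551 in FL, with a fold of 5.84 (q = 2.64e-07), and chr2:74520247-74520409 in HL, with a fold of 3.15 (q of 1). The FL summit lay at −45 bp and the HL summit at −69 bp from that start. By this placing the HL summit fell within the octamer shown in capitals, which spans −73 to −66, and the FL summit lay nearer to the start. The placing runs through the Mtx2 start. The nearby Hoxd12 start differed by −84 bp between the study's distances in mm9 and the GRCm38 annotation. Evx2, on the far side of Hoxd12 from Mtx2, lay at −166246 bp from Mtx2 in both. Whether the −84 bp comes from the builds or from the gene sets was not tested. Which bases lie under these summits was not checked. At the first Hoxd11 start only HL had a peak, with its summit 40 bp downstream (fold 1.84, q of 1).

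Hoxd9 and Hoxd8 are central genes of the complex with early expression in the limb bud. In the intron of Hoxd9, a peak was called in both limbs, with a fold of 4.51 in FL (chr2:74536466-74537069, q = 9.17e-04, 3 summits) and 3.60 in HL (chr2:74536672-74537208, q = 0.00458, 2 summits). The main summits lay 105 bp apart. Closest to the Hoxd9 start were weaker summits, 704 bp downstream in FL (fold 2.36) and 406 bp downstream in HL (fold 1.84). Hoxd8 had no called peak in its 7.38 kb interval. FL had a summit 213 bp past its start (fold 3.23, q = 0.183), and both limbs had a peak over an exon near 1.3 kb, with a fold of 2.56 in FL and 3.18 in HL.

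Hoxd3 and Hoxd4 act in the neck and anterior trunk, and their annotated transcripts overlap each other, so an intronic peak there belongs to more than one gene. The intronic peak 2.59 kb past the Hoxd3 start was among the best matched of the landscape. It had a fold of 3.78 in FL (chr2:74552547-74552738, q = 0.0414) and 4.004 in HL (chr2:74552548-74552757, q = 8.55e-04), with summits 2 bp apart. At the Hoxd4 start, HL had a summit at −4 bp (fold 3.30, q = 0.697), whereas the nearest FL summit lay 6.58 kb downstream.

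The 41.0 kb from the Hoxd4 start to the Hoxd1 start held 8 peaks in each limb, and 7 of each 8 overlapped a peak of the other limb. Over all peaks, 22.6% of FL and 29.0% of HL peaks overlapped the other limb. This interval held the most shared peaks of any in the complex, but it was also the longest. The others there were 4.54 to 12.3 kb long. In an intron of Hoxd3 that extends past Hoxd4, 19.5 kb from the Hoxd4 start, a peak was called in both limbs, with a fold of 4.94 in FL (chr2:74579440-74579648, q = 7.01e-05) and 4.68 in HL (chr2:74579495-74579685, q = 7.60e-04). Another, 12.7 kb from the Hoxd4 start, was called in HL (chr2:74572379-74572986, fold 3.84, q = 0.00121), while the FL peak there had a fold of 2.56 (q = 0.681). Hoxd1, the end gene of the complex, had no peak within 1000 bp of its start. Its nearest summits lay at −9.73 kb in FL (chr2:74591134-74591423, fold 5.50, q = 5.87e-06) and at −9.74 kb in HL (fold 3.79, q = 0.113). They were 5 bp apart, over an exon of Haglr, a noncoding RNA antisense to the complex.

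**Figure D4:**
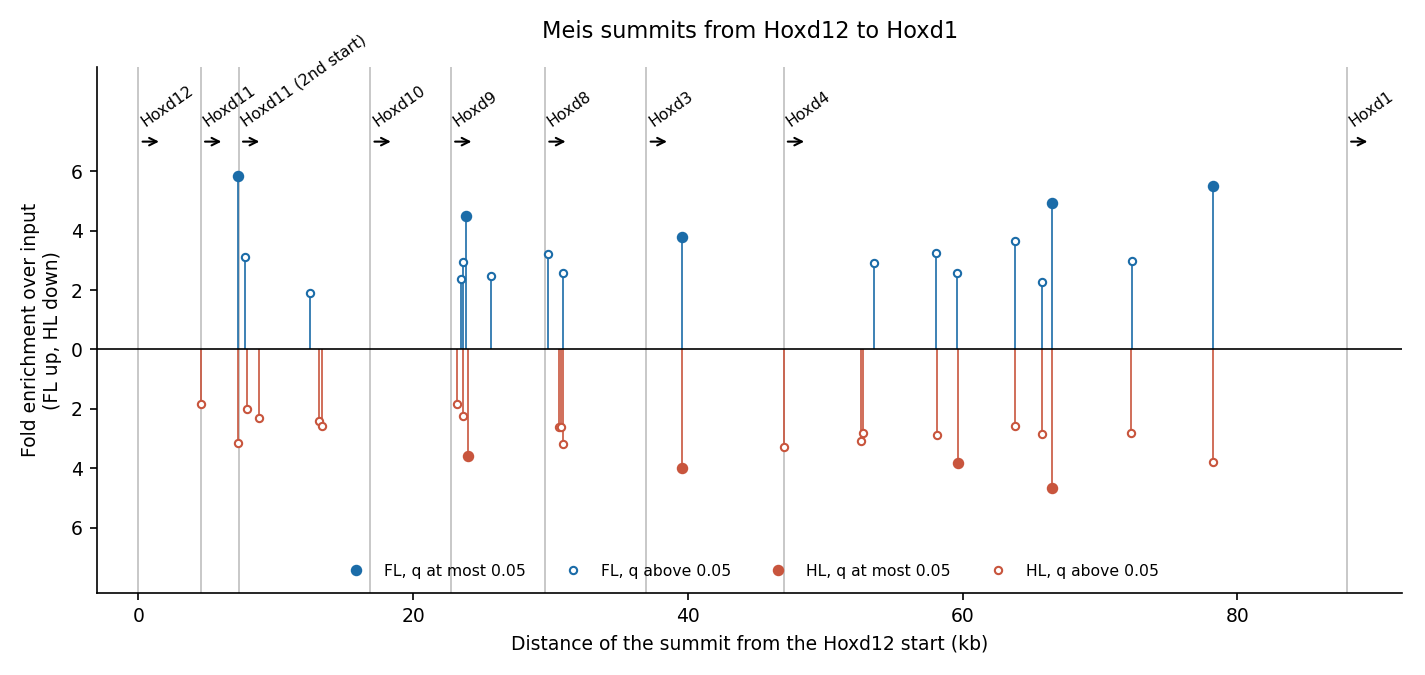
Fold enrichment over input of each Meis summit (FL upwards, HL downwards) by its distance in kb from the Hoxd12 start (GRCm38, placed by Mtx2). Arrows mark gene starts and filled points have q of at most 0.05. The highest FL summits sit at the second Hoxd11 start (5.84) and upstream of Hoxd1 (5.50). In the row from Hoxd4 to Hoxd1, 7 of 8 peaks are shared between the limbs, against 22.6% of all FL and 29.0% of all HL peaks.

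Mtx2 had no summit near its start. The nearest were 21.8 kb into the gene region in FL and 13.6 kb in HL. A peak in its intron was called in both limbs, with a fold of 5.21 in FL (chr2:74685618-74686014, q = 7.46e-06) and 3.92 in HL (chr2:74685596-74685958, q = 0.0219).

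The strongest FL peak of the landscape lay in intergenic desert 690 kb past the Mtx2 start. At chr2:75353879-75354450 the FL fold was 10.02 (q = 8.96e-20), which ranked 164 of all 21338 FL peaks. The HL peak over the same place (chr2:75353809-75354475) had 3 summits and a fold of 4.23 (q = 0.00806). Slightly nearer to Mtx2, at 687 kb, another FL peak reached 6.12 (chr2:75351000-75351263, q = 9.77e-08), against 2.61 in HL (q of 1). At 669 kb, a pair of peaks was called in both limbs, with 5.53 in FL (chr2:75332347-75332584, q = 7.53e-05) and 3.88 in HL (q = 0.0352). These 3 places lie within one group of peaks, and FL was the higher limb at each of them.

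The strongest HL peak lay 313 kb past the Mtx2 start. At chr2:74976414-74976738 the HL fold was 8.52 (q = 5.84e-17), rank 113 of all 16987 HL peaks, and the FL peak there had a fold of 2.20 (q of 1). The summits were 1 bp apart. By the GENCODE annotation of GRCm38, this summit lay at −326 bp from the start of the noncoding RNA 2600014E21Rik and at −719 bp from the start of Gm13652, a noncoding RNA on the other strand. FL had a separate peak nearby that no HL peak overlapped, at chr2:74975583-74975797 over an exon of Gm13652 (fold 3.89, q = 0.115). Further into 2600014E21Rik, at 391 kb, HL was again the higher limb, with 5.16 (chr2:75054957-75055324, q = 3.95e-04) against 3.49 in FL (q = 0.366).

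At 614 kb, in an intron of the noncoding RNA Gm13658, the fold was 5.10 in FL (chr2:75277819-75278274, q = 9.69e-10) and 5.38 in HL (chr2:75277650-75278266, q = 6.41e-07), with summits 14 bp apart. At 209 kb it was 4.54 in FL (chr2:74872818-74873129, q = 0.00183) and 2.45 in HL (q of 1).

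Many landscape peaks were present in both limbs. In FL, 24 of 52 overlapped an HL peak by at least 1 bp (46.2%, 33.3 to 59.5), against 22.6% of all FL peaks. In HL, 25 of 50 overlapped an FL peak (50.0%, 36.6 to 63.4), against 29.0% of all HL peaks. The numbers differ by 1 because an FL peak at 313 kb overlapped a pair of HL peaks. Both intervals lay above the background share. Called peaks were mostly shared. Of the 15 called FL peaks, 2 had no HL peak (33.0% of all called FL peaks had none), and of the 10 called HL peaks, 0 lacked an FL peak, which allows a share of up to 30% (10.7% of all called HL peaks lacked one). The 2 FL peaks lay in an intron of 2600014E21Rik (chr2:75047494-75047722, fold 3.67, q = 0.0440) and 166 kb past the Hnrnpa3 start (chr2:75663722-75663857, fold 4.12, q = 0.0206).

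The 24 FL peaks with an HL counterpart were paired with the overlapping HL peak of highest fold. The FL fold was higher in 17 of 24 pairs, or 70.8% (50.8 to 85.1), and 62.1% of all 4813 pairs had the higher fold in FL. The interval holds the background share, so the landscape pairs could not be told from all pairs in this respect. The median log2 ratio of FL to HL fold was 0.16 (interval of the median −0.08 to 0.50) and 0.17 over all pairs. Pairs ranged from −1.95 to 1.25. The largest ratios towards FL were 1.25 (at 690 kb), 1.23 (at 687 kb) and 0.89, the last both at 209 kb and at the second Hoxd11 start. Towards HL they were −1.95 (at 313 kb), −0.58 (12.7 kb past the Hoxd4 start) and −0.57 (at 391 kb). With 1 library per limb, these are values of single libraries and no difference between limb types is tested. Summits of a pair lay a median of 23.5 bp apart (30.0 over all pairs). Within 50 bp were 15 of 24 pairs, and 3236 of all 4813. By q value, 7 landscape pairs were called in both limbs, 6 in FL alone, 3 in HL alone and 8 in neither. These q counts were not made over all pairs, so they describe the landscape pairs only.

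**Figure D5:**
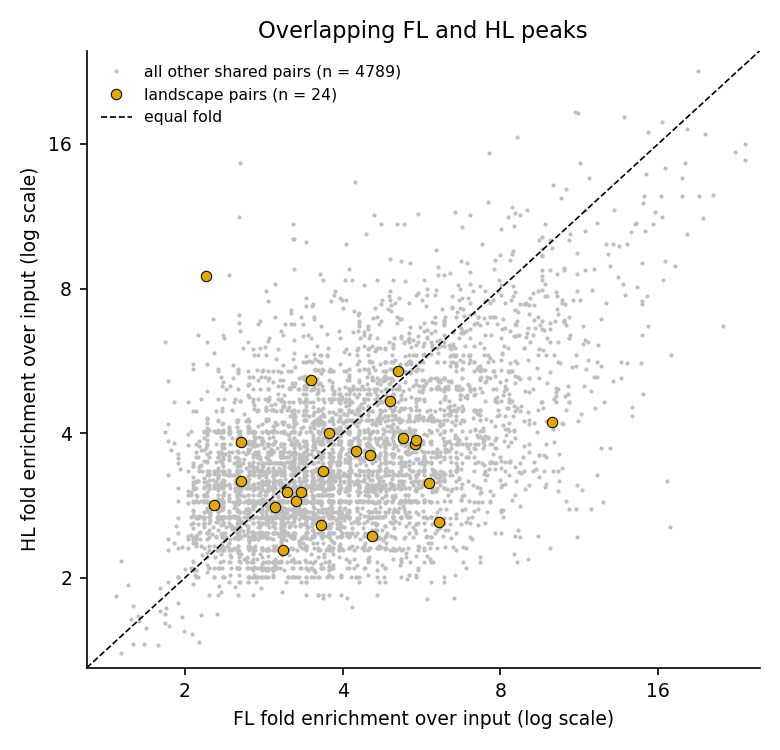
HL fold against FL fold (both over input, log scales) of overlapping FL and HL peaks, with the 24 landscape pairs over the 4789 other pairs. The landscape pairs spread around equal fold, with a single pair far towards HL (8.52 against 2.20) and the pair of highest FL fold (10.02) below the line.

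On the Hoxd13 side, the window of equal length that ends where the landscape begins held fewer listed peaks, 16 in FL (13.5 per Mb) and 18 in HL (15.2 per Mb). Among stronger peaks this contrast shrank, and by fold it reversed in HL. With q of at most 0.05, the landscape held 15 FL and 10 HL peaks, and the Hoxd13 side 8 and 8. With a fold of at least 4, the landscape held 12 and 6, and the Hoxd13 side 7 and 8. The highest HL fold was 18.6 on the Hoxd13 side and 8.52 in the landscape, and in FL 11.6 and 10.02. The called share of the Hoxd13 side was 50.0% in FL (28.0 to 72.0), and 44.4% in HL (24.6 to 66.3), and these intervals overlap those of the landscape. Of its peaks, 11 in each limb were shared, or 68.8% in FL (44.4 to 85.8) and 61.1% in HL (38.6 to 79.7). These shares were above the 46.2% and 50.0% of the landscape, with overlapping intervals, so a high share is not particular to the landscape. The last peak before the landscape had a fold of 11.6 in FL and 5.45 in HL, and the first inside it 5.84 in FL and 1.84 in HL. At the far border, the last peak inside had 4.12 in FL and 3.06 in HL, and the first past it 4.399 and 2.101.

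The study lists 884 regions bound by both Meis in FL and Hoxc10, a Hox protein of the hindlimb, and 3 of them have their middle in the landscape. These were chosen on FL Meis peaks, so that a Meis summit there is a description. They lie over the Hoxd8 exon near 1.3 kb, over the intron of Hoxd3 19.5 kb past the Hoxd4 start and at the strongest FL peak 690 kb past Mtx2. HL summits lay 1, 5 and 19 bp from the middle of the 3 regions, with folds of 3.18, 4.68 and 3.34. FL summits lay 13, 14 and 169 bp from it, with folds of 2.56, 4.94 and 10.02.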

How the data were processed

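Meis1/2 ChIP-seq peak lists of FL and HL buds were analysed (4 samples, of which the inputs enter only through the peak caller). Reads of 50 bp were processed per the labels with CASAVA 1.8.2, cutadapt 1.3, BWA, SAMtools and MACS2, on mm9. Each deposited fold is the authors' ratio of ChIP signal over input. The −log10 p, the −log10 q and the score in the deposited files were computed by the authors' peak caller, and the lists reach p of 0.0220 (FL) and 0.0217 (HL). The score was not used.

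Rows of identical start and end formed a single peak, with the position and fold of its summit of highest fold. Its p and q were the smallest of any of its summits. Gene starts and exons come from RefSeq and GENCODE on GRCm38. They were placed in mm9 by their distance from the Mtx2 start, without converting coordinates. Of 7 starts known in both builds, 6 had the same distance from Mtx2, but these include Mtx2 itself, which matches by definition. The other, Hoxd12, differed by −84 bp (mm9 minus GRCm38), so distances were taken from Mtx2 and not, as planned, from Hoxd12. Hoxd12 was the only compared start inside the Hox complex, so positions of the other Hoxd starts were not checked. Evx2, on the far side of Hoxd12 from Mtx2, matched at −166246 bp from Mtx2. Peak sequences are not printed, since an mm9 genome was not used here.

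Peaks named with values are the 10 of highest fold in each limb, those in the complex with q of at most 0.05 in either limb, the 3 pairs of most unequal fold each way, and the 3 FL peaks of highest fold without an HL peak. Peaks nearest to the gene starts, the Hoxd8 peaks, the single HL peak between Hoxd1 and Mtx2 and those at the window borders are also given, outside that rule and after their values were seen. The genes, lists and rules were chosen with earlier results of these data known. No test between limbs was made. Overlap counting was tested on simulated peaks, and all 600 planted overlaps were recovered (Python 3.11.15, pandas 2.3.3).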

Additional observations from a re-analysis of the deposited data

How the results depend on the processing

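No paired analysis was possible because each limb has 1 library, and for the same reason no replicate could be left out. Of 64 values recomputed under other cutoffs, overlaps and windows, 38 stayed within the limits set and 26 moved. The median log2 ratio of FL to HL fold stayed above 0 in each alternative. It was 0.32 with q of at most 0.05 in both limbs (7 pairs) and 0.14 with p of at most 0.0005 in both (17 pairs). With the window ending at the Hnrnpa3 start it was 0.16. As another measure, the median difference in −log10 p of the pairs was 0.67. Keeping peaks with q of at most 0.05 left 15 FL and 10 HL peaks, p of at most 0.0005 left 29 and 24, and a fold of at least 4 left 12 and 6. With p in place of q, 55.8% of FL (42.3 to 68.4) and 48.0% of HL peaks (34.8 to 61.5) were called, against 31.7% and 37.0% of all peaks, so that the HL interval then holds the background share. Overlap with the other limb fell to 30.8% (FL) and 32.0% (HL) when 50% of both peaks had to overlap. It rose to 86.7% and 100% for peaks with q of at most 0.05, and was 70.8% for HL with p of at most 0.0005 in both lists. For the 50% rule and the p rule the share over all peaks was not computed. Whether overlap exceeds the background under those rules is thus not known. Median fold was 4.94 (FL) and 4.12 (HL) among peaks with q of at most 0.05, and 3.67 and 3.57 with p of at most 0.0005. Genes with an HL peak numbered 4 by q and 3 by fold. The Hoxd13 side held 8, 10 and 7 FL peaks and 8, 10 and 8 HL peaks by q, p and fold, and 28 HL summits when each was counted. The counts by q, p and fold fall because fewer peaks enter, while counting each summit adds to a count.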
